A study of Mus musculus with 6 samples.

Results

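Integrins are receptors of an alpha and a beta chain that tie a cell to the extracellular matrix or to another cell, and focal adhesion proteins link their cytoplasmic tails to actin and to kinases. The 36 genes described here were taken by name from a table of 54532 genes: 19 integrin chains other than Itgax, 4 adhesion molecules and ligands (Icam1, Vcam1, Pecam1, Cd44), and 13 proteins of the cytoplasmic side, among them talin, kindlin-3, 2 tensins, focal adhesion kinases and the ILK complex. All 36 symbols had 1 row each. They were measured by RNA sequencing in 3 p16High and 3 p16Low libraries of peritoneal macrophages.

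Both groups came from C57BL/6 mice carrying p16-Cre and the Rosa26-mtmg reporter and kept for 12 months, so both carry the same alleles. Peritoneal cells were enriched on magnetic beads by F4/80, which marks the surface of macrophages, before sorting by flow cytometry. p16High is the EGFP fraction, in which the p16 promoter has driven Cre at some time, and p16Low is the tdTomato fraction, in which the reporter has not switched. EGFP therefore records past as well as present activity of that promoter. Whether a group's 3 libraries are separate animals is not in the labels, so p-values measure only the spread between these libraries.

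In a macrophage, integrins carry adhesion, movement and the uptake of complement-coated particles. Ligand binding and an inside-out signal both activate them. In the inside-out direction, talin and kindlin bind the beta tail and open the receptor. Vinculin, paxillin, zyxin, tensins and the ILK, PINCH and parvin complex then join the receptor to actin, and the kinases FAK and PYK2 pass the signal on.

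FPKM scales the reads of a gene to its transcript length and to the library total. The totals, recovered from the FPKM themselves, ran from 16.52 to 20.87 M reads (M, mega). Cdkn2a, which encodes p16, stood at 7.01, 7.84 and 5.48 FPKM in p16High libraries, against 0.620, 0.933 and 1.71 FPKM in p16Low libraries, without overlap. The F4/80 gene Adgre1 ranged over 2425 to 2751 FPKM in p16High libraries and 1236 to 2374 FPKM in p16Low libraries, and its lowest value was that of p16Low replicate 2. That library stood apart from the other 5: its score was 48.9 on principal component 1 (55.65% of the variance), against -15.9 to -4.70 for the others. Its share of mitochondrial reads was 1.08%, against 0.545% to 0.684% in the other libraries. The fold change of every tested member was therefore also computed without it. In bulk RNA, fewer cells of a type and less RNA per cell cannot be told apart.

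One gene of the set rose in p16High, Tns1, and none fell. The promoter windows of Tns1 and of Itgam, the CD11b chain used to recognise macrophages, are shown because Tns1 carries the single difference that passed the test, while Itgam is a high, macrophage-type member whose mean was nearly the same in both groups. The windows run from 250 bases before to 50 bases after the RefSeq start and are read on the gene's strand, 5′ to 3′, in GRCm38.p6. Capitals mark the GC box GGGCGG in Tns1 (chr1:74124499-74124798, minus strand) and the PU.1 core GAGGAA in Itgam (chr7:128062390-128062689, plus strand), each on either strand. The Tns1 window lies wholly upstream of the gene's span in the deposited table, which ends at 74124449, so the RefSeq start differs from that one.
Tns1: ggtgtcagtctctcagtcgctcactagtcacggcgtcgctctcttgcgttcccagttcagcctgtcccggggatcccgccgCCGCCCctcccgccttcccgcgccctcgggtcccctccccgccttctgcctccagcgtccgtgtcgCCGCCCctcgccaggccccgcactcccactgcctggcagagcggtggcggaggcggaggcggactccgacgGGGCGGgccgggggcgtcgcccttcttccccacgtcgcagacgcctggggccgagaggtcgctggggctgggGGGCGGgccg
Itgam: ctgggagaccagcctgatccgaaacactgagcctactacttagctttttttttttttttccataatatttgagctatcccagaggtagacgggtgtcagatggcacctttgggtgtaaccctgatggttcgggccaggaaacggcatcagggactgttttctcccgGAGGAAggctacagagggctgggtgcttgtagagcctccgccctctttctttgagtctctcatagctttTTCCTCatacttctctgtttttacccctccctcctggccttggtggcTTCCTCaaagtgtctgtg
The Tns1 window held 4 GC boxes, no PU.1 core and 75.7% G or C. The Itgam window held 3 PU.1 cores and 1 GC box, with 50.3% G or C, and no base lay in both motifs. GC boxes occurred in 35.7% of all 32851 promoter windows and in 18 of 29 windows of the members. PU.1 cores occurred in 28.3% of all windows and in 10 of the 29. The AP-1 letters TGANTCA were in 7.81% of all windows and 3 of the 29, and the GATA core AGATAA in 11.2% and 3 of the 29. RefSeq windows were matched for 24 of the 36 members. A match of letters is a description and does not show binding.

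Of the 36 genes, 23 passed the filter of at least 1 FPKM in 3 libraries and were tested with limma on log2(FPKM + 1), with Benjamini-Hochberg adjustment over all 10895 tested genes. Tns1 was the 1 member past an adjusted p of 0.05, beside 0.89% of all tested genes, of which 0.174% were higher and 0.716% lower in p16High. By limma-voom on recovered reads it was again 1 member, Tns1, beside 0.808% of all genes (0.184% higher, 0.624% lower). Of the 23, 3 had an unadjusted p under 0.05, against 7.22% of all tested genes. The median log2 fold change was 0.24 over the 23 and 0.05 over all tested genes; without p16Low replicate 2 these medians were 0.05 and -0.02. The groups did not overlap for 4 members that were higher in p16High (Tns1, Itga7, Itga9 and Ptk2b) and for 1 that was lower (Lims1), beside 8.4% and 7.45% of all tested genes.

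**Figure D1:**
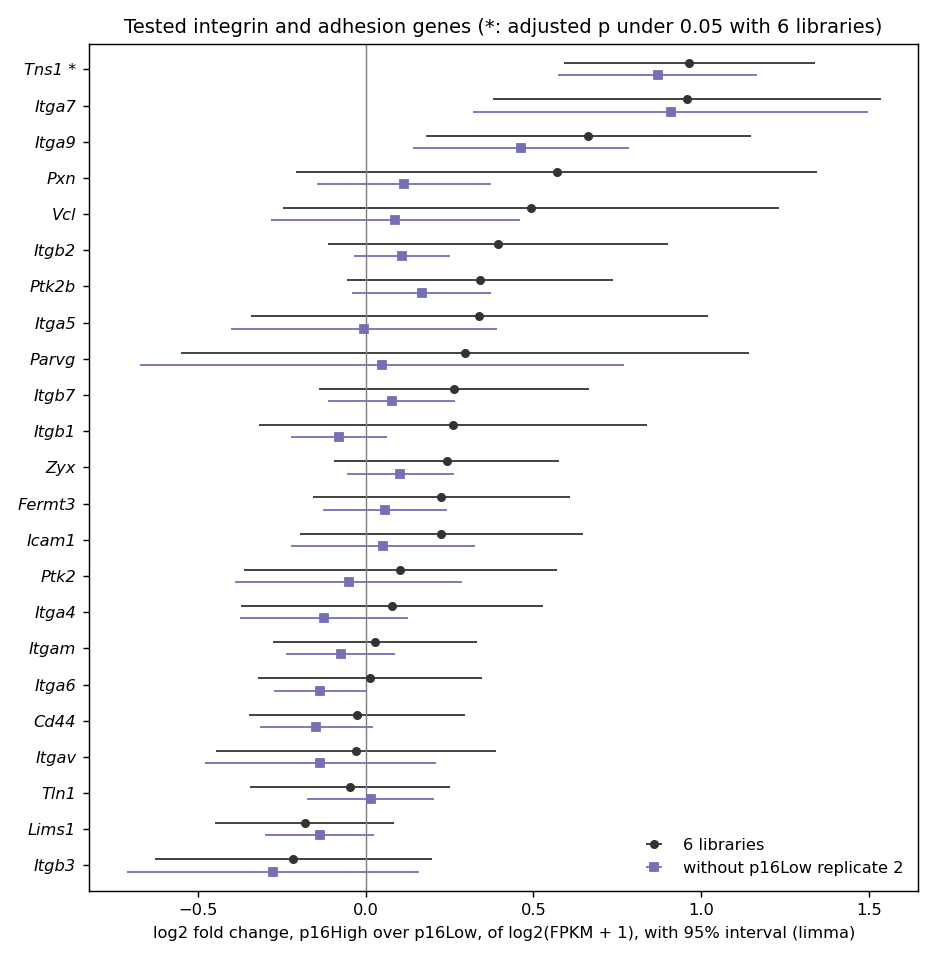
Log2 fold change of the 23 tested members, p16High over p16Low, on the scale of log2(FPKM + 1), with the 95% interval from limma; circles use 6 libraries and squares leave out p16Low replicate 2. Tns1, at 0.96 with 6 libraries and 0.87 without p16Low replicate 2, is the member marked as past the threshold, and for 19 of the 23 the size of the change is under 0.2 without that library.

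Tns1 encodes tensin 1, which binds integrin beta tails and actin at the longer-lived adhesions along stress fibres. Its gene (ENSMUSG00000055322) spans 73910231 to 74124449 of chromosome 1 on the minus strand (GRCm38). Tns1 stood at 15.7, 14.7 and 13.6 FPKM in p16High libraries, against 7.95, 6.03 and 7.16 FPKM in p16Low libraries. Every p16High library lay above every p16Low library. These levels rest on 838, 809 and 633 reads in p16High, against 414, 355 and 407 reads in p16Low. The means were 14.6 ± 1.05 FPKM in p16High, against 7.05 ± 0.966 FPKM in p16Low (SD, n = 3 each), a ratio of 2.08. By limma, the log2 fold change was 0.96 with a 95% interval of 0.59 to 1.34 (SE 0.165, adjusted p = 0.0362). Without p16Low replicate 2 the change was 0.87 (adjusted p = 0.00291 by limma). Without any 1 of the other 5 libraries it was 0.92 to 1.04 and missed the threshold, with adjusted p of 0.225, 0.216 and 0.159 when p16High replicate 1, 2 or 3 was left out, and 0.102 and 0.118 when p16Low replicate 1 or 3 was. It also missed the threshold with no filter on low values (adjusted p = 0.132 by limma).

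The tensins differed in level. Tns3, the other tensin among the members, stayed under the filter, at 0.564, 0.264 and 0.0783 FPKM in p16High libraries, against 0.315, 0.232 and 0.594 FPKM in p16Low libraries. Its reads ran from 4 to 37 a library. Tns2, which is outside the set, had 1.61, 1.42 and 1.40 FPKM in p16High, against 0.859, 0.514 and 0.702 FPKM in p16Low, or 1.48 ± 0.113 and 0.692 ± 0.173 FPKM on average (p16High and p16Low, SD, n = 3 each; adjusted p = 0.380 by limma). Every p16Low value of Tns2 was under 1 FPKM, so Tns2 met the filter only through the p16High libraries, where it was higher. Tns4, also outside the set, averaged 8.04 ± 0.131 FPKM in p16High, against 9.47 ± 2.16 FPKM in p16Low. Its log2 fold change was -0.19 with 6 libraries and -0.37 without p16Low replicate 2 (adjusted p = 0.787 and 0.292 by limma). The ratio of Tns1 to Tln1 FPKM was 0.0771, 0.0702 and 0.0698 in the p16High libraries and 0.0442, 0.0266 and 0.0322 in the p16Low libraries. This ratio does not depend on the scaling between libraries. It uses the same Tns1 values, which already did not overlap, so its separation of the groups adds no support.

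**Figure D2:**
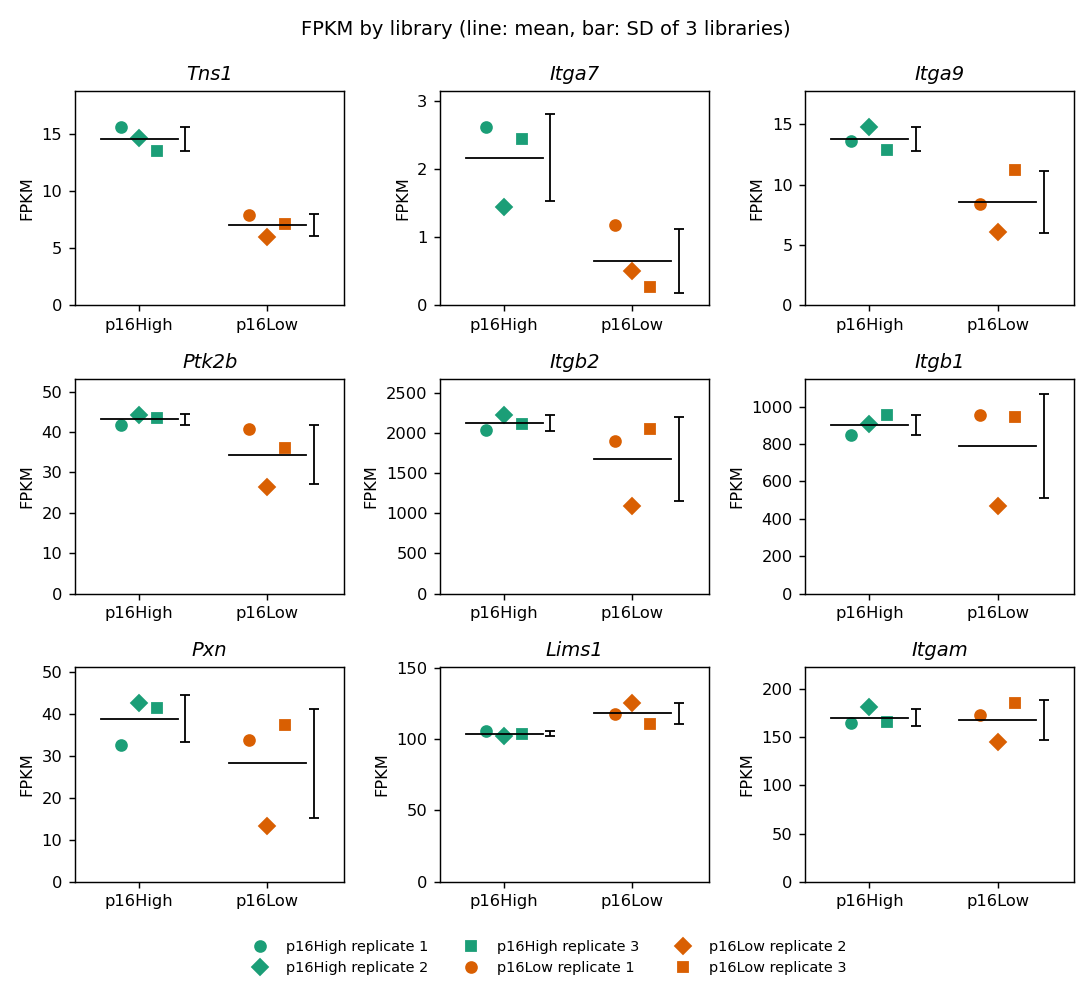
FPKM of 9 members in each library, p16High left of p16Low, with symbols for the replicate number; lines are means and bars the SD of 3 libraries, and every axis starts at 0. Tns1, Itga7, Itga9 and Ptk2b do not overlap between the groups, while for Itgb2, Itgb1 and Pxn the lowest value is that of p16Low replicate 2.

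Among the alpha chains, Itga7 and Itga9 had the largest changes. Itga7, which pairs with the beta 1 chain in a laminin receptor best known from muscle, stood at 2.62, 1.44 and 2.44 FPKM in p16High libraries, against 1.18, 0.504 and 0.270 FPKM in p16Low libraries. All p16High values lay above all p16Low values, on low counts of 137, 78 and 111 reads in p16High and 60, 29 and 15 reads in p16Low. In p16Low only replicate 1 reached 1 FPKM, so Itga7 met the filter through the p16High libraries. The log2 difference of 0.96 (SE 0.254, adjusted p = 0.215 by limma) did not pass the test, nor did it without p16Low replicate 2 (0.91, adjusted p = 0.121 by limma). With a pseudocount of 0.1 in place of 1 the log2 fold change was 1.74, and over all alternatives the adjusted p ran from 0.121 to 0.724.

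Itga9 encodes a partner of beta 1 that binds tenascin, osteopontin and VCAM-1. It stood at 13.6, 14.8 and 12.9 FPKM in p16High libraries, against 8.38, 6.07 and 11.2 FPKM in p16Low libraries. The groups did not overlap, but p16Low replicate 3 came close to the lowest p16High value. The means were 13.8 ± 0.972 FPKM in p16High, against 8.55 ± 2.56 FPKM in p16Low (SD, n = 3 each), and the log2 change of 0.66 (SE 0.213, adjusted p = 0.407 by limma) did not pass. Without p16Low replicate 2 it was 0.46, with a 95% interval of 0.14 to 0.79 (adjusted p = 0.155 by limma). Set against Itga4, the alpha chain closest to it in its ligands, Itga9 had 0.551, 0.580 and 0.508 times the FPKM in p16High, against 0.341, 0.341 and 0.362 times in p16Low.

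Itga6, the alpha 6 chain of laminin receptors, was the most abundant alpha chain of the set in every library. It stood at 669, 699 and 692 FPKM in p16High libraries, against 727, 554 and 782 FPKM in p16Low libraries, so the p16High values lay inside the p16Low range. Its log2 fold change was 0.01, with a 95% interval of -0.32 to 0.35 (adjusted p = 0.979 by limma). Itgam, which with Itgb2 forms the complement receptor Mac-1, stood at 165, 181 and 166 FPKM in p16High libraries, against 173, 145 and 186 FPKM in p16Low libraries. Here too the p16High values fell inside the p16Low range, with a log2 fold change of 0.03 and a 95% interval of -0.28 to 0.33. Of the exonic bases of Itgam, 68.7% are shared with the annotated gene Gm49368, which itself had at most 4 reads in a library. The sources used here do not say how reads over shared exons were assigned, so the level of Itgam is uncertain.

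The other alpha chains were lower. Itga4, the chain of the VCAM-1 receptor VLA-4, averaged 25.2 ± 0.415 FPKM in p16High, against 24.4 ± 6.58 FPKM in p16Low (SD, n = 3 each). Itgav, the chain of the vitronectin receptors, averaged 8.88 ± 1.48 FPKM in p16High, against 9.07 ± 1.24 FPKM in p16Low. Itga5, the chain of the fibronectin receptor, averaged 7.09 ± 1.45 FPKM in p16High, against 5.70 ± 2.53 FPKM in p16Low. None of the 3 passed, and the order of Itgav and Itga5 depends on the length used: per kilobase of all annotated exons the mean of Itga5 lay above those of Itga9 and Itgav. The 6 remaining alpha chains were under the filter. Itgal, the chain of LFA-1, had 19, 33 and 7 reads in p16High and 31, 48 and 49 reads in p16Low. Itga1, Itga2, Itga3 and Itgae had at most 12 reads in any library. Itga8 had no read in any library, where 3 reads, the limit that a count of 0 allows, correspond to 0.144 to 0.182 CPM (read counts scaled to the library total).

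The beta chains followed one order in all 6 libraries: Itgb2 first, then Itgb1, Itgb7 and, far lower, Itgb3. The mean levels kept this order per kilobase of all annotated exons. Itgb2, the CD18 chain shared by the leukocyte integrins, stood at 2032, 2224 and 2115 FPKM in p16High libraries, against 1896, 1083 and 2044 FPKM in p16Low libraries. The groups overlapped, because p16Low replicate 3 lay above p16High replicate 1. Its log2 fold change was 0.40, with a 95% interval of -0.11 to 0.90 (adjusted p = 0.747 by limma), and 0.11, with an interval of -0.04 to 0.25, without p16Low replicate 2.

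Itgb1, the partner of most matrix-binding alpha chains, stood at 846, 905 and 953 FPKM in p16High libraries, against 956, 468 and 945 FPKM in p16Low libraries. In p16Low replicate 2 it was at 0.493 times the mean of the other p16Low libraries. The log2 fold change was 0.26 with 6 libraries and -0.08 without that one, and neither passed (adjusted p = 0.781 and 0.704 by limma). Itgb7, the partner of Itga4 and Itgae in gut-homing lymphocytes and in mast cells, stood at 238, 293 and 269 FPKM in p16High libraries, against 239.5, 171 and 265 FPKM in p16Low libraries. Its level rests on a short mean transcript length of 870 bases, which raises FPKM relative to genes with longer annotated transcripts. Itgb3, the platelet and osteoclast chain that pairs with Itgav, averaged 2.29 ± 0.444 FPKM in p16High, against 2.81 ± 0.297 FPKM in p16Low (SD, n = 3 each; adjusted p = 0.773 by limma). Itgb5 had 2 to 31 reads a library, and Itgb8 had 1 read over all libraries.

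Itga6 had the largest share of the summed alpha-chain FPKM, and Itgb2 of the beta-chain FPKM, in both groups. The alpha-chain shares depend on the length used. Per kilobase of all annotated exons, Itga6 averaged 170 reads per M reads and Itgam 95.5. Itgax was left out of the sums, and the level of Itgam is uncertain. Itga6 was 74.5% to 75.4% of the summed FPKM of the 13 alpha chains in p16High and 75.4% to 76.4% in p16Low, lower in every p16High library by a narrow margin. Itgam was 18.1% to 19.3% in p16High and 18.1% to 19.8% in p16Low. The share of Itga9 was 1.40% to 1.58% in p16High and 0.827% to 1.09% in p16Low, without overlap. Among the 6 beta chains, Itgb2 was 63.3% to 65.1% in p16High and 61.3% to 62.8% in p16Low, also without overlap, while Itgb1 was 26.4% to 28.5% in p16High and 27.1% to 30.9% in p16Low. Itgb7 was 7.63% to 8.56% in p16High and 7.74% to 9.92% in p16Low. The shares of the low chains Itga7 and Itgb3 did not overlap either. Itga7 was 0.154% to 0.295% in p16High and 0.0262% to 0.124% in p16Low, and Itgb3 was 0.0564% to 0.0835% in p16High and 0.0923% to 0.144% in p16Low. These shares carry no test, and shares of the same sum depend on each other. By FPKM, the groups did not overlap for 15.9% of all tested genes.

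**Figure D3:**
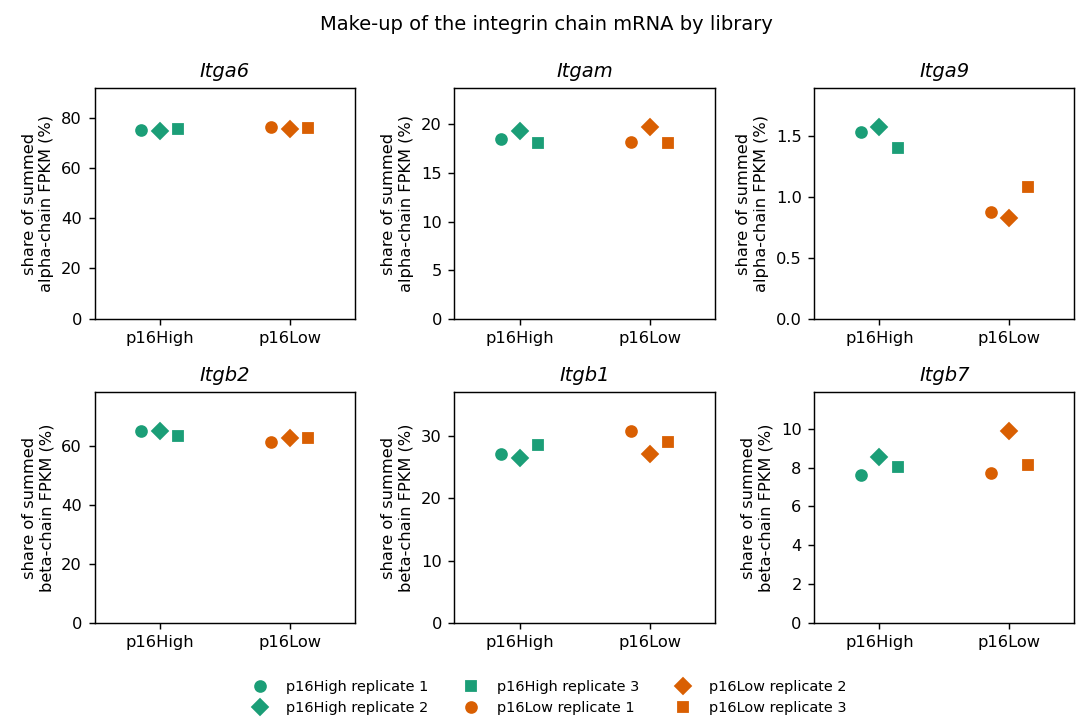
Share of 3 alpha chains in the summed FPKM of the 13 alpha chains, and of 3 beta chains in that of the 6 beta chains, in each library, p16High left of p16Low; every axis starts at 0. Itga9 lies at 1.40% to 1.58% in p16High and 0.827% to 1.09% in p16Low, without overlap. The summed alpha-chain FPKM of p16Low replicate 2, 734, was the lowest of all libraries.

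Among the adhesion molecules and ligands, no member passed. Cd44, the hyaluronan receptor, stood at 99.9, 92.4 and 92.3 FPKM in p16High libraries, against 106, 81.5 and 104 FPKM in p16Low libraries, with the lowest and the highest values both in p16Low. Icam1, the ligand of LFA-1 and Mac-1, stood at 14.1, 13.2 and 13.4 FPKM in p16High libraries, against 12.5, 8.82 and 13.6 FPKM in p16Low libraries. Their log2 fold changes were -0.03 for Cd44, with a 95% interval of -0.35 to 0.30, and 0.23 for Icam1, with a 95% interval of -0.20 to 0.65. Vcam1, the ligand of VLA-4, had 25, 42 and 7 reads in p16High and 16, 2 and 13 reads in p16Low. Pecam1, the endothelial and platelet adhesion molecule, had 11, 34 and 18 reads in p16High and 11, 5 and 20 reads in p16Low. Both were under the filter.

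Of the proteins that activate integrins, Tln1 and Fermt3 were abundant and neither passed. Tln1, which encodes talin 1, stood at 204, 209 and 195 FPKM in p16High libraries, against 180.0, 227 and 222 FPKM in p16Low libraries. The p16High values fell within the p16Low range, with a log2 fold change of -0.05 and a 95% interval of -0.34 to 0.25. Fermt3, which encodes kindlin-3, the kindlin of blood cells, stood at 185, 218 and 207 FPKM in p16High libraries, against 183, 137 and 208 FPKM in p16Low libraries. Its log2 fold change was 0.23, with a 95% interval of -0.16 to 0.61.

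The linkers zyxin, paxillin and vinculin were lowest in p16Low replicate 2. Zyx, a LIM protein of mature adhesions, stood at 188, 196 and 202 FPKM in p16High libraries, against 173, 136 and 191 FPKM in p16Low libraries. Pxn, the scaffold paxillin, stood at 32.6, 42.6 and 41.4 FPKM in p16High libraries, against 33.8, 13.2 and 37.4 FPKM in p16Low libraries. Vcl, which encodes vinculin and reinforces the talin link to actin, stood at 6.96, 8.12 and 6.27 FPKM in p16High libraries, against 5.83, 2.28 and 7.46 FPKM in p16Low libraries. For Pxn both other p16Low libraries lay within the p16High range, and for Vcl and Zyx 1 of them did. The log2 fold changes of Pxn and Vcl were 0.57 and 0.49 with 6 libraries and 0.11 and 0.09 without p16Low replicate 2, with adjusted p of 0.747 and 0.751, and 0.778 and 0.901, by limma. Vinculin shares 25.5% of its exonic bases with Ap3m1, which stood at 0.559 times its level in the other p16Low libraries in p16Low replicate 2.

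Both focal adhesion kinases were measured. Ptk2b, which encodes PYK2, the form that blood cells use most, stood at 41.7, 44.3 and 43.4 FPKM in p16High libraries, against 40.8, 26.4 and 35.95 FPKM in p16Low libraries. The groups did not overlap, by a gap of less than 1 FPKM, and the log2 change of 0.34 (SE 0.174, adjusted p = 0.737 by limma) did not pass. Ptk2, which encodes FAK, averaged 15.1 ± 2.17 FPKM in p16High, against 14.2 ± 3.60 FPKM in p16Low (SD, n = 3 each).

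The members of the ILK complex were uneven. Lims1, which encodes PINCH-1, stood at 106, 103 and 104 FPKM in p16High libraries, against 118, 126 and 111 FPKM in p16Low libraries, with every p16High value below every p16Low value. Its log2 fold change of -0.18 (95% interval -0.45 to 0.09, adjusted p = 0.751 by limma) did not pass. Parvg, the parvin of blood cells, averaged 1.92 ± 0.981 FPKM in p16High, against 1.45 ± 1.20 FPKM in p16Low (SD, n = 3 each), and Parva had no read in any library. Ilk, the pseudokinase at the centre of the complex, had at most 2 reads in a library. The annotation puts 89.7% of the exonic bases of Ilk under exons of Taf10 and Rrp8, which had 1457 to 3120 and 327 to 459 reads a library, so these counts do not show that Ilk was not expressed.

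p16Low replicate 2 was the lowest of the 6 libraries for 18 of the 23 tested members, 78.3%, against 46.5% of all tested genes. Its FPKM was a median of 0.696 times the mean of the other p16Low libraries over the 23 members, with a range of 0.328 to 1.13, and a median of 0.848 times over all tested genes. Tln1 and Lims1 were the 2 members highest in this library. The median coefficient of variation of the 23 members was 7.05% among the p16High libraries and 21.5% among the p16Low libraries. Without p16Low replicate 2, 13 of the 23 members had a positive log2 fold change, where 45.4% of all tested genes did, and with it 18 of 23 did, where 58.1% did.

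**Figure D4:**
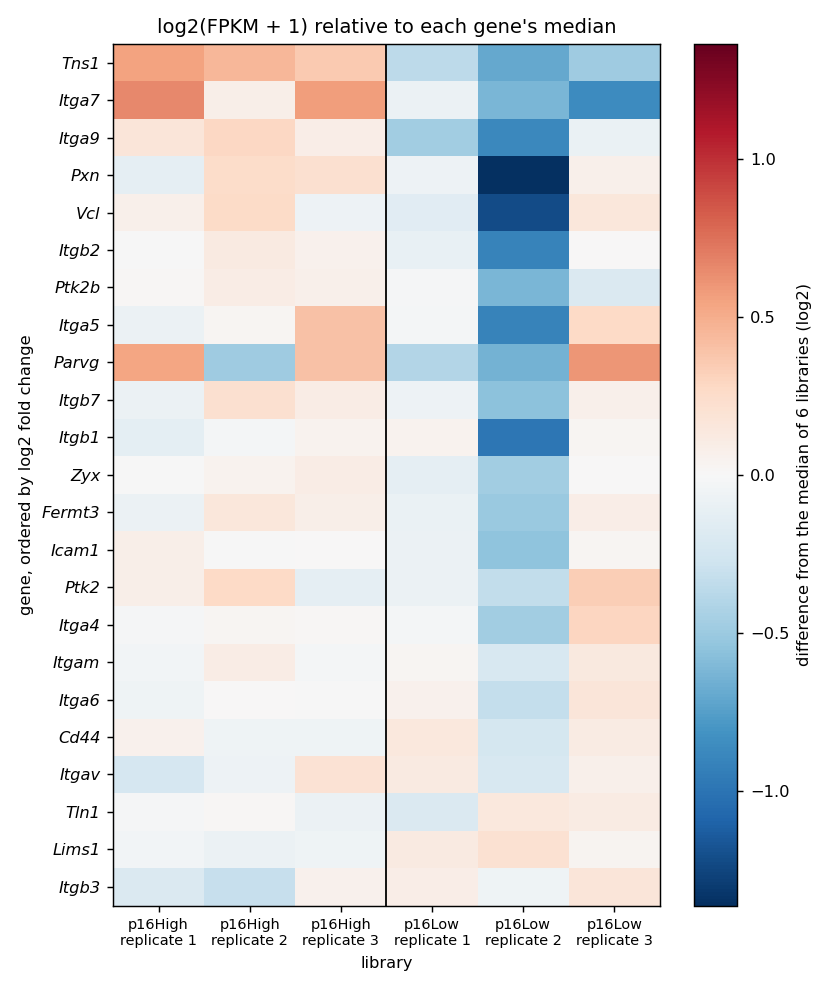
Log2(FPKM + 1) of the 23 tested members in each library relative to the median of the 6 libraries for that gene, genes ordered by log2 fold change from top to bottom, p16High left of p16Low. Tns1 is above its median in all p16High libraries and below it in all p16Low libraries, and p16Low replicate 2 is the lowest library for 18 of the 23 genes.

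Without p16Low replicate 2 the log2 fold changes of the abundant members were small. They were -0.14 for Itga6, -0.07 for Itgam, 0.08 for Itgb7, -0.15 for Cd44, 0.01 for Tln1, 0.06 for Fermt3, 0.10 for Zyx and -0.14 for Lims1, and 0.17 for Ptk2b. None of these passed.

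Beyond the members, 111 other genes of integrin biology were examined in 5 lists, and 74 passed the filter. None passed limma over all genes, beside 0.89% of all tested genes. An unadjusted p under 0.05 was reached by 4 of the 74. By limma-voom, too, 0 were called. Their median log2 fold change was 0.10, against 0.05 over all tested genes, and 0.0080 without p16Low replicate 2, against -0.02 over all tested genes. None of the 6 further integrin chains passed the filter, and 3 of them (Itga10, Itga11 and Itgad) had no read.

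Among 12 tested ligands of integrins, Spp1, which encodes osteopontin, stood at 38.8, 39.4 and 37.9 FPKM in p16High libraries, against 29.9, 27.5 and 27.8 FPKM in p16Low libraries. The groups did not overlap, and the log2 fold change was 0.43 (adjusted p = 0.315 by limma) with 6 libraries and 0.41 (adjusted p = 0.0343 by limma) without p16Low replicate 2. Lamc1, a laminin chain, had 5.58, 6.72 and 3.53 FPKM in p16High, against 7.53, 6.79 and 7.61 FPKM in p16Low (log2 fold change -0.44, adjusted p = 0.737 by limma). Thbs1, which encodes thrombospondin 1, stood at 89.4, 115 and 113 FPKM in p16High libraries, against 174, 94.3 and 198 FPKM in p16Low libraries. It fell by 0.82 on the log2 scale without p16Low replicate 2 (adjusted p = 0.000565 by limma), while with 6 libraries its log2 fold change of -0.49 did not pass.

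Among 21 tested linkers and scaffolds, Lims2, which encodes PINCH-2, the close relative of Lims1, stood at 23.4, 31.7 and 26.1 FPKM in p16High libraries, against 17.7, 16.5 and 14.3 FPKM in p16Low libraries. It was higher in every p16High library, with a log2 difference of 0.71 (SE 0.166, adjusted p = 0.137 by limma), and it passed without p16Low replicate 2 (0.72, adjusted p = 0.0115 by limma). Thus 3 of the 74 genes passed without that library, beside 2.76% of all tested genes: Lims2 and Spp1 were higher, beside 0.89%, and Thbs1 was lower, beside 1.87%. In the list of inside-out activation, 12 genes were tested, and Skap2 and Kank2 had the smallest p. Skap2, an adaptor, had 82.4, 82.9 and 90.1 FPKM in p16High, against 78.5, 53.4 and 79.3 FPKM in p16Low (log2 fold change 0.29, adjusted p = 0.747 by limma). Kank2, which binds talin, had 7.44, 7.59 and 7.00 FPKM in p16High, against 5.53, 2.85 and 8.46 FPKM in p16Low (log2 fold change 0.43, adjusted p = 0.752 by limma). In the list of outside-in signalling, 29 were tested, and Grb2 and Vav1 had the smallest p. Grb2, an adaptor, had 73.0, 79.9 and 77.1 FPKM in p16High, against 70.3, 54.9 and 69.8 FPKM in p16Low (log2 fold change 0.24, adjusted p = 0.747 by limma). Vav1, a Rac exchange factor, had 32.4, 37.9 and 37.9 FPKM in p16High, against 34.7, 15.8 and 35.4 FPKM in p16Low (log2 fold change 0.40, adjusted p = 0.754 by limma).

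Markers of other cells that express members of the set were read beside these values. The 9 macrophage genes were all tested, and their sum was 81008 to 82237 FPKM in p16High libraries and 85285 to 89277 FPKM in p16Low libraries, mostly Lyz2, and none of them passed. Lyz2 and Fcgr1 had negative log2 fold changes and the other 7 had positive ones, with a median of 0.19. Adgre1, Timd4 and Cd68 were higher in every p16High library and Lyz2 was lower in every one. Without p16Low replicate 2, Cd68 passed (0.27, adjusted p = 0.0318 by limma). Of 6 B-cell genes all were tested, and their summed FPKM was 136 to 204 in p16High and 222 to 239 in p16Low, with Igkc and Ighm the most abundant. None passed with 6 libraries, and 5 had an unadjusted p under 0.05 by limma, against 7.22% of all tested genes. Without p16Low replicate 2, Cd79a and Ms4a1 were lower and passed (adjusted p = 0.0204 and 0.00926 by limma), beside 1.87% of all tested genes. The 6 mast-cell genes, which bear on Itgb7, summed to 1.15 to 3.64 FPKM in p16High, against 0 to 0.235 FPKM in p16Low, with Cpa3 and Cma1 highest and Kit at 0. All 6 were under the filter and untested. Cpa3 had 7, 14 and 22 reads in p16High and 4, 1 and 0 reads in p16Low. Cma1 had 12, 9 and 15 reads in p16High and 0 in every p16Low library. The 6 dendritic-cell genes summed to 22.9 to 32.9 FPKM in p16High, against 14.8 to 17.7 FPKM in p16Low, mostly from Cd209a and Batf3. The other 4 were under the filter. Cd209a was higher in every p16High library, with a log2 fold change of 1.01, and did not pass with 6 libraries (adjusted p = 0.0729 by limma). Without p16Low replicate 2 it passed (1.02, adjusted p = 0.00694 by limma), where 0.89% of all tested genes passed as higher. Batf3 overlapped between the groups, with a log2 fold change of 0.11. The 10 genes of small peritoneal macrophages, led by Retnla and Fn1, summed to 3953 to 4562 FPKM in p16High, against 5210 to 6588 FPKM in p16Low. Of the 9 tested, 4 fell (H2-Aa, H2-Ab1, H2-Eb1 and Cd74, genes of the antigen presentation pathway), beside 0.716% of all tested genes. Napsa and Plac8 were also lower in every p16High library. Neither passed with 6 libraries (adjusted p = 0.0799 and 0.0688 by limma). Without p16Low replicate 2 both passed (adjusted p = 0.0133 and 0.0104 by limma), where 1.87% of all tested genes passed as lower. Retnla and Fn1 overlapped between the groups and did not pass (adjusted p = 0.738 and 0.780 by limma). Irf4 had a log2 fold change of 0.07. Ccr2 was under the filter and untested. It had 9, 10 and 9 reads in p16High and 68, 46 and 73 reads in p16Low, and its FPKM was lower in every p16High library. The macrophage, B-cell, mast-cell, dendritic-cell, small macrophage and platelet sums did not overlap between the groups, as Tns1 did not, and their part in its difference was not tested.

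Markers of mesothelial, stromal and endothelial cells were near 0. The 9 mesothelial and stromal genes summed to at most 0.156 FPKM in p16High, against 0.0533 FPKM in p16Low, with Msln, Upk3b, Wt1, Col1a2 and Pdgfra at 0. The 4 endothelial genes summed to at most 0.0586 FPKM in p16High, against 0.0219 FPKM in p16Low, with Tek and Emcn at 0. The 6 T and NK cell genes summed to at most 0.242 FPKM in p16High, against 0.627 FPKM in p16Low. The 4 eosinophil genes summed to 0.185 to 0.822 FPKM in p16High, against 0.314 to 0.576 FPKM in p16Low, with Epx and Prg2 at 0. The 5 neutrophil genes summed to 22.3 to 31.7 FPKM in p16High, against 28.1 to 50.3 FPKM in p16Low, nearly all from S100a8, while Ly6g, S100a9 and Mpo were at 0. The 5 platelet genes summed to 4635 to 5825 FPKM in p16High libraries and 6679 to 10522 FPKM in p16Low libraries, without overlap. They were carried by Pf4, which macrophages also express and which averaged 5364 ± 638 FPKM in p16High, against 8057 ± 2139.6 FPKM in p16Low (SD, n = 3 each), while Gp1bb was at 0 and Itga2b had at most 0.324 FPKM. The 8 immediate early genes, which respond to handling of cells, summed to 831 to 920.5 FPKM in p16High, against 791 to 868 FPKM in p16Low, and none of the 7 tested passed.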

How the data were processed

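The deposited table holds FPKM values, which the authors computed per gene and library; per the submitters' processing notes the tools included HTSeq 0.6.1, TopHat2 2.0.12 and Bowtie2 2.2.3. The sources used here give neither their settings nor the genome build. Start and end matched GENCODE M21 (GRCm38) for 98.3% of the gene IDs found there. FPKM times the mean annotated transcript length, rounded down, gave whole reads within 0.001 read for 96.2% of the 22566 genes above 0, and the rest were solved over whole-number lengths; these reads served for depth, counts and limma-voom. Apart from limma-voom, no model of counts was run. The limit of 3 reads for a count of 0 covers counting error only.

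The test took every gene that reached 1 FPKM in 3 libraries, using limma 3.58.1 (R 4.3.3) on log2(FPKM + 1), group as the only term, with a trended empirical Bayes step and Benjamini-Hochberg adjustment over 10895 genes. A pseudocount of 1 understates changes of low genes. The function was tested on simulated data. Folds are ratios of mean FPKM. All 6 columns were used. Values of every library are given for called members, the 12 of smallest p and the most abundant of each role. For the lists of other integrin genes they are given for genes past the threshold or the 2 of smallest p. Thbs1, Tns4, Irf4, Napsa, Plac8, Ccr2, Cd79a, Ms4a1 and the macrophage genes named singly were chosen after their values were seen. The members and lists were chosen with earlier results of these data known. Alternatives were a pseudocount of 0.1, no filter, median-of-ratios scaling, limma-voom on recovered reads, a replicate block, and each library left out in turn. Promoter windows are from RefSeq (GRCm38.p6).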

Additional observations from a re-analysis of the deposited data

How the results depend on the processing

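Of 11 alternatives, Tns1 passed in 4: a pseudocount of 0.1, median-of-ratios scaling, limma-voom and the fit without p16Low replicate 2. The count of called members was 0 without the filter on low values, and 0 with the replicate block, and ran from 0 to 1 with 1 library left out. The count over all genes was 9 with no filter, where 22566 genes were tested, and ran from 17 to 301 with 1 library left out; 301 was without p16Low replicate 2, and all 97 genes called with 6 libraries were among them. The count of other pathway genes ran from 0 to 3 with 1 library left out. Same-numbered libraries did not deviate together (correlations -0.189, -0.173 and 0.0143), so the replicate numbers give no pairing. With the replicate block 67 genes were called, and Tns1 had an adjusted p of 0.0885 by limma.

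With median-of-ratios scaling the log2 fold changes of Itga6 and Itgam were -0.0276 and -0.0127, and the cause was not tested. With 1 library left out, the signs of 9 members changed in at least 1 fit: Itga4 ran from -0.12 to 0.26, Itga5 from -0.0048 to 0.58, Itga6 from -0.14 to 0.11, Itgam from -0.0734 to 0.104, Itgav from -0.144 to 0.0664, Itgb1 from -0.0787 to 0.435, Cd44 from -0.146 to 0.0450, Tln1 from -0.151 to 0.0150 and Ptk2 from -0.0502 to 0.283. None of them passed in any fit, and the other 14 members kept their sign in all 11 alternatives. The 13 members under the filter had at most 49 reads in a library and were not tested.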
